A study of Mus musculus with 8 samples.

Results

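The genes described here are 9 members of the renin-angiotensin and mineralocorticoid systems of the mouse heart, Agt, Ace, Agtr1a, Agtr2, Mas1, Nr3c2, Hsd11b1, Corin and Mme, out of 39056 genes in the count table. They were taken by symbol from a list of genes, and 8 of the 9 had enough reads for the test between genotypes, Agtr2 being the exception. RNA was sequenced from the hearts of 4 HVCN1 null mice (hearts 1 to 4) and 4 wild-type (WT) mice (hearts 5 to 8), 1 poly-A library per heart, and which parts of each heart were taken is not given in the sources used here. All were male and 3 months old, the WT mice were on the C57BL/6 background, and no treatment other than the knockout is named. HVCN1 (Hv1) is the voltage-gated proton channel, and its gene was knocked out with no tissue-specific driver named, so that this model does not separate a loss in heart muscle cells from a loss elsewhere in the animal. The comparison asked which transcripts of these hormone systems differed between hearts with and without the channel.

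In the renin-angiotensin system, renin cuts angiotensinogen (Agt) to angiotensin I, and angiotensin-converting enzyme (Ace) turns it into angiotensin II, which raises blood pressure and drives cardiac growth and fibrosis through the AT1 receptor (Agtr1a). The AT2 receptor (Agtr2) and the Mas receptor (Mas1) carry largely opposing signals, and Mas1 responds to a shorter peptide that neprilysin (Mme) can make from angiotensin I. Aldosterone and corticosterone act on the mineralocorticoid receptor (Nr3c2), Hsd11b1 regenerates active corticosterone inside cells, and corin (Corin) activates the natriuretic peptides that oppose both systems.

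Of the 9 genes, 8 had 1 or more promoter windows in the RefSeq table for GRCm38.p6, 11 windows in all, each 250 bases before and 50 after an annotated start. The stretch before the start is printed for Agt, the gene with the largest difference between genotypes among the 8, and for Corin and Nr3c2, whose levels varied together over the hearts. They are Agt chr8:124569707-124569956 on the minus strand, Corin chr5:72504541-72504790 on the minus strand and Nr3c2 chr8:76902080-76902287 on the plus strand, the last ended where GENCODE places an exon. Capitals mark TATAAA and CCAAT on either strand, a CCAAT on the opposite strand reading ATTGG.
Agt: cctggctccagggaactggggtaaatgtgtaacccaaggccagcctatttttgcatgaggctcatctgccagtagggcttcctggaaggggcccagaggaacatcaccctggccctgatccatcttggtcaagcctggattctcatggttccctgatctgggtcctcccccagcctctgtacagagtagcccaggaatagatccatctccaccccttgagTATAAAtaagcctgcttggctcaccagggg
Corin: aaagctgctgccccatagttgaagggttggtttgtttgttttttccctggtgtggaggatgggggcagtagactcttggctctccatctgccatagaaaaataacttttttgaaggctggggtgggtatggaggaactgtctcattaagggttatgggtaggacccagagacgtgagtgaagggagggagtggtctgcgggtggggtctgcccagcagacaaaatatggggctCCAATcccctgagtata
Nr3c2: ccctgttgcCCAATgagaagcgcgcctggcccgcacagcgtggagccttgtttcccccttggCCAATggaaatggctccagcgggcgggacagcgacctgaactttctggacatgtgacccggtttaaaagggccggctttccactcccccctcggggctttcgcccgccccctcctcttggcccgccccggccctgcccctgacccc
The Agt window held TATAAA on the gene's strand 30 bases before the start, a match found on that strand in 8.319% of all 32851 windows (13.62% on either strand), and it held 1 CpG where the median window held 7. The Corin window had 1 CCAAT, 17 bases before the start, and 5 CpG. The window of Nr3c2 had 3 CCAAT matches, 1 of them beyond the printed stretch, and 17 CpG. A CCAAT on either strand was in 37.41% of all windows. The letters AGAACA, the first block of the element bound by mineralocorticoid and glucocorticoid receptors, were in none of the 11 windows on either strand and in 18.97% of all windows. These matches describe the letters of the windows only.

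Total counts ran from 25851255 to 38874640 per heart. Hvcn1 itself had 6, 6, 1 and 3 counts in null hearts 1 to 4 against 102, 49, 99 and 68 counts in WT hearts 5 to 8, which matched the labels. The sum of 5 cardiomyocyte markers was 41942 to 53442 CPM (a gene's counts relative to the library size, scaled by TMM) in the null hearts and 44914 to 52894 in the WT hearts. Myh6 was its largest part, at 24793 to 32270 CPM over all hearts. Actc1, another of the 5, was lower in every null heart, with 6078 to 6727 against 7640 to 10536 CPM (edgeR quasi-likelihood adjusted p = 0.105). Of all tested genes, 3.45% were lower in null hearts without overlap. The hearts differed widely in atrial transcripts. The atrial myosin light chain Myl7 had 17.0, 632, 609 and 33.6 CPM in null hearts 1 to 4, and 578, 0.618, 1185 and 0.169 CPM in WT hearts 5 to 8, so that null hearts 2 and 3 and WT hearts 5 and 7 were high and the other 4 hearts low. Bmp10, a gene of the right atrium, passed 100 CPM in null heart 2 (418 CPM) and WT heart 7 (574 CPM) alone. The split crosses the genotypes with 2 hearts of each on either side. WT hearts 6 and 8 held almost no atrial transcript. Since these are bulk libraries, fewer cells of a type and less RNA per cell cannot be told apart.

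Between genotypes, Agt was the member with the largest difference, with 36.7% less transcript in HVCN1 null hearts and no overlap of the groups, while the fitted values of Ace, Agtr1a, Nr3c2, Hsd11b1, Corin and Mme lay within 0.10 of 0 on the log2 scale. By edgeR's quasi-likelihood test with Benjamini-Hochberg adjustment over 14796 genes, 0 of the 8 tested members were differentially expressed genes (DEGs, adjusted p under 0.05), where 169 of all tested genes (1.14%) were. At an unadjusted p under 0.05 there was 1 member, Agt, against 11.0% of all tested genes. The edgeR exact test, the likelihood ratio test, DESeq2 and limma voom also called 0 members. The genotypes did not overlap in 1 of the 8, again Agt with its lower values in null hearts, against 7.06% of all tested genes (3.60% higher and 3.45% lower in null hearts). The members' median log2 fold change (HVCN1 null over WT) was -0.01, as was that of all tested genes.

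**Figure D1:**
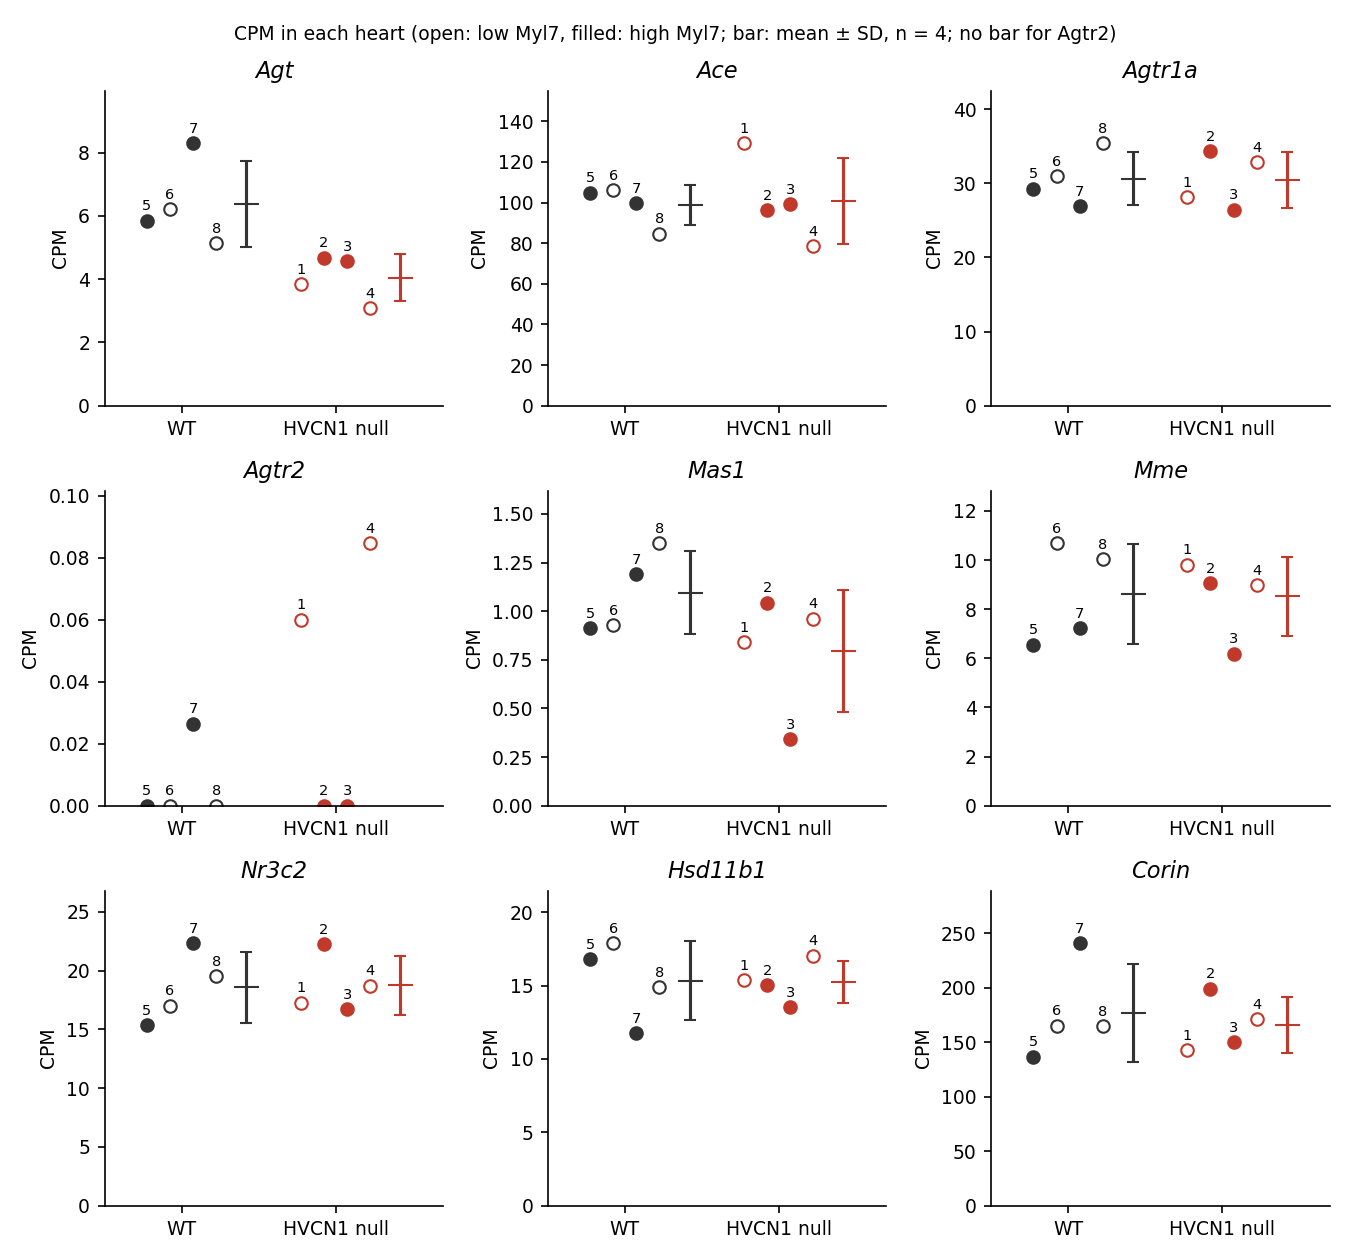
CPM of the 9 genes in each heart (vertical axes from 0), with WT hearts 5 to 8 in black and HVCN1 null hearts 1 to 4 in red, filled where Myl7 was above 500 CPM; the bar at the right of each group is the mean ± SD (n = 4), left out for Agtr2. The groups are apart for Agt (3.08 to 4.68 against 5.13 to 8.31 CPM) and overlap for each of the others.

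Agt (ENSMUSG00000031980, chromosome 8, 124556534 to 124569706, minus strand, GRCm38), the precursor of all angiotensins, had 3.84, 4.68, 4.56 and 3.08 CPM in null hearts 1 to 4 against 5.85, 6.21, 8.31 and 5.13 CPM in WT hearts 5 to 8. The highest null heart lay under the lowest WT heart, and WT heart 7 stood highest. The means were 4.04 ± 0.740 and 6.37 ± 1.36 CPM (SD, n = 4 each). On the log2 scale the fitted difference was -0.66 (standard error 0.19, 95% interval -1.08 to -0.24), or 36.7% lower. Its edgeR quasi-likelihood p was 0.00529 and its adjusted p 0.169, which placed it at rank 462 of 14796. The two-sided exact permutation p of the difference in mean CPM was 0.0286, the smallest that 4 against 4 hearts allow.
Since the groups did not overlap over all hearts, they could not overlap on either side of the atrial split. In the hearts low in Myl7, Agt had at most 3.84 CPM in the null and at least 5.13 in the WT hearts, and in the high ones at most 4.68 and at least 5.85. With the atrial marker score as a covariate the log2 fold change was -0.73 and the edgeR adjusted p 0.0464, the 1 setting of 21 in which a member was called, within a range of adjusted p from 0.0464 to 0.870. With any 1 heart left out the log2 fold change lay between -0.74 and -0.50, the smallest size coming without WT heart 7. That heart also had the highest sum of adipocyte markers, and adipocytes are known to express Agt. Of 7 adipocyte markers, 5 were tested, all 5 had a negative sign and none was a DEG. The sum of the 7 was 17.6 to 47.1 CPM in the null and 22.6 to 91.0 CPM in the WT hearts. Most of this sum was Cidea in every heart other than null heart 2 and WT heart 7. Over all hearts Cidea had 15.1 to 23.8 CPM, where Adipoq had 0.0309 to 7.80 CPM. With the adipocyte score as a covariate the log2 fold change of Agt was -0.69 (edgeR adjusted p = 0.0647). The part of adipocytes in the Agt values was not tested.

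Ace (ENSMUSG00000020681, chromosome 11, 105967945 to 105989964, plus strand), the endothelial enzyme that makes angiotensin II, had 129, 96.3, 99.3 and 78.5 CPM in null hearts 1 to 4, and 105, 106, 99.7 and 84.6 CPM in WT hearts 5 to 8. The null hearts spanned the wider range, with heart 1 the highest and heart 4 the lowest of all 8. Its log2 fold change was 0.03 (95% interval -0.29 to 0.35, edgeR adjusted p = 0.980).

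Mme (ENSMUSG00000027820, chromosome 3, 63241537 to 63386030, plus strand), or neprilysin, cuts angiotensins, natriuretic peptides and bradykinin. It had 9.82, 9.07, 6.19 and 8.99 CPM in null hearts 1 to 4 against 6.55, 10.7, 7.22 and 10.0 CPM in WT hearts 5 to 8. The groups overlapped over nearly their whole range. The fitted log2 fold change was -0.01 (95% interval -0.44 to 0.41, edgeR adjusted p = 0.995). The hearts low in Myl7 had 8.99 to 10.7 CPM of Mme and the high ones 6.19 to 9.07 CPM, with means of 9.88 and 7.26 CPM over 4 hearts each and null hearts 2 and 4 alone in the overlap.

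Agtr1a (ENSMUSG00000049115, chromosome 13, 30336441 to 30382867, plus strand), the AT1 receptor, had 28.2, 34.3, 26.4 and 32.9 CPM in null hearts 1 to 4, and 29.3, 30.9, 26.9 and 35.4 CPM in WT hearts 5 to 8. The values interleaved between the genotypes. The log2 fold change was -0.01, and its 95% interval from -0.26 to 0.24, the narrowest among the 8 members, corresponds to 0.837-fold to 1.18-fold (edgeR adjusted p = 0.996).
Agtr2 (ENSMUSG00000068122, chromosome X, 21484544 to 21489164, plus strand), the AT2 receptor, which is abundant in fetal tissue, was at the limit of detection. It had 2, 0, 0 and 3 counts in the null and 0, 0, 1 and 0 counts in the WT hearts. The ratio of 5 to 1 counts, scaled for library size, was 5.26, with an exact 95% interval from counting error of 0.589 to 249, so that no difference in either direction was detectable at this depth. A heart with 0 counts allows up to 3 counts, 0.0759 to 0.114 CPM over the 8 hearts.
Mas1 (ENSMUSG00000068037, chromosome 17, 12841079 to 12868143, minus strand), the Mas receptor, had 0.841, 1.04, 0.342 and 0.961 CPM in HVCN1 null hearts and 0.911, 0.927, 1.19 and 1.35 CPM in WT hearts, 110 against 151 counts. Null heart 3 was the lowest by far, and null heart 1 also lay under every WT heart. Null hearts 2 and 4 fell within the range of the WT hearts. Its log2 fold change was -0.44 with the widest interval of the 8 (-1.17 to 0.29, edgeR adjusted p = 0.755).

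**Figure D2:**
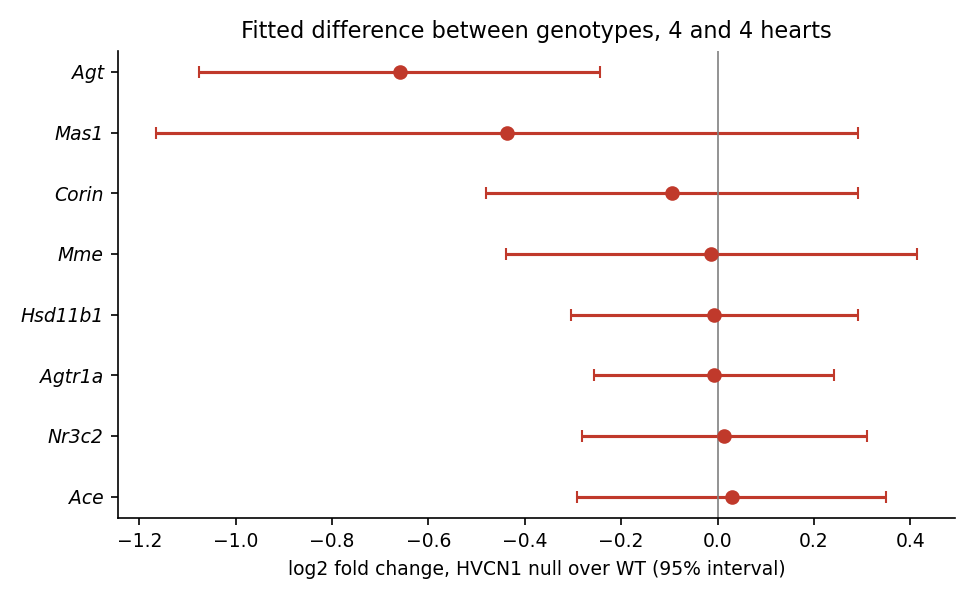
Fitted log2 fold change of the 8 tested genes (horizontal axis, HVCN1 null over WT) with 95% intervals from edgeR's quasi-likelihood fit. The interval of Agt (-1.08 to -0.24) leaves out 0, and those of the other 7 include it.

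Nr3c2 (ENSMUSG00000031618, chromosome 8, 76899442 to 77245012, plus strand), the mineralocorticoid receptor, had 17.3, 22.2, 16.7 and 18.7 CPM in null hearts 1 to 4 against 15.4, 17.0, 22.3 and 19.5 CPM in WT hearts 5 to 8. The highest heart of each genotype, null heart 2 and WT heart 7, was the one with high Bmp10. The fitted log2 fold change was 0.01 (95% interval -0.28 to 0.31, edgeR adjusted p = 0.993). The ratio of Nr3c2 to the glucocorticoid receptor Nr3c1, per kilobase of exon, was 0.320 ± 0.0457 in the null and 0.290 ± 0.0387 in the WT hearts (SD, n = 4 each; log2 difference 0.14, two-sided exact permutation p = 0.371).
Hsd11b1 (ENSMUSG00000016194, chromosome 1, 193221634 to 193264075, minus strand), which raises active glucocorticoid in the cell, had 15.3, 15.0, 13.5 and 17.0 CPM in the null and 16.8, 17.9, 11.7 and 14.9 CPM in the WT hearts. WT hearts held both the highest and the lowest value. The log2 fold change was -0.01 (95% interval -0.31 to 0.29, edgeR adjusted p = 0.997). Hsd11b1 overlaps Lamb3 on the opposite strand, and whether the counting used strand is not given in the sources used here. Hsd11b2, the enzyme that inactivates corticosterone in aldosterone target cells, had 16 counts over the null and 17 over the WT hearts.

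Corin (ENSMUSG00000005220, chromosome 5, 72300025 to 72504473, minus strand), the cardiomyocyte protease that activates atrial natriuretic peptide, had 142, 199, 150 and 171 CPM in null hearts 1 to 4, and 137, 165, 241 and 165 CPM in WT hearts 5 to 8. WT heart 7 and null heart 2 were again the highest. Its log2 fold change was -0.09 (95% interval -0.48 to 0.29, edgeR adjusted p = 0.929), and without WT heart 7 it was 0.10. Corin overlaps Gm19560 on the opposite and AU023070 on the same strand. The ratio of Corin to its substrate Nppa, per kilobase of exon, followed Myl7. Nppa, itself an atrial marker, ran from 83.1 to 4629 CPM over the hearts, where Corin ran from 137 to 241 CPM. The ratio thus moved mostly with Nppa, and its following Myl7 is no separate result on Corin. It was 0.0116 to 0.123 in the null and 0.00834 to 0.317 in the WT hearts, lowest where Myl7 was high, with a log2 difference between genotypes of -0.52 (two-sided exact permutation p = 0.629). Among the hearts low in Myl7 it was 0.0879 and 0.123 in the null against 0.222 and 0.317 in the WT hearts, a log2 difference of -1.35, and among the high ones the difference turned to 0.31. Neither could reach an exact permutation p under 0.333 with 2 against 2 hearts. On the low side the null hearts had more Myl7 (17.0 and 33.6 CPM) than the WT hearts (0.618 and 0.169 CPM). Atrial content and genotype cannot be told apart there. Adjusted over the 2 ratios reported, both exact permutation p-values were 0.629.
Over the 8 hearts the log2 CPM of Corin and Nr3c2 had the highest correlation of the 28 pairs of tested members (Pearson's r = 0.911), and Ace and Agtr1a the lowest (r = -0.58). These are descriptions over 8 hearts, both genes read from the same libraries.

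Scaled by the length of merged exons, the order of the members' levels over all 8 hearts was Corin, Ace, Agtr1a, Hsd11b1, Nr3c2, Agt, Mme, Mas1 and Agtr2. Corin had 31.7 ± 6.34 CPM per kilobase (SD, n = 8, range 25.3 to 44.6), Ace 18.9 ± 2.88 (14.9 to 24.5) and Agtr1a 11.0 ± 1.22. Corin's lowest heart was thus just above Ace's highest. Hsd11b1 (3.59 ± 0.470), Nr3c2 (2.88 ± 0.398) and Agt (2.75 ± 0.850 CPM per kilobase) were neighbours whose ranges overlapped. Mme had 0.743 ± 0.147, Mas1 0.361 ± 0.113 and Agtr2 0.00644 CPM per kilobase, each with a range apart from the next. With the longest transcript as the length, Hsd11b1 was at 7.73, Agtr1a at 13.9 and Mme at 1.07 CPM per kilobase.
Spread between hearts differed among the members. The coefficient of variation over 8 hearts was 31.2% for Mas1, 30.9% for Agt, 20.0% for Corin, 19.8% for Mme and 15.3% for Ace, against 13.8% for Nr3c2, 13.1% for Hsd11b1, 11.2% for Agtr1a and a median of 14.8% over all tested genes. Within the genotypes that of Agt was 18.3% in null and 21.4% in WT hearts.

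**Figure D3:**
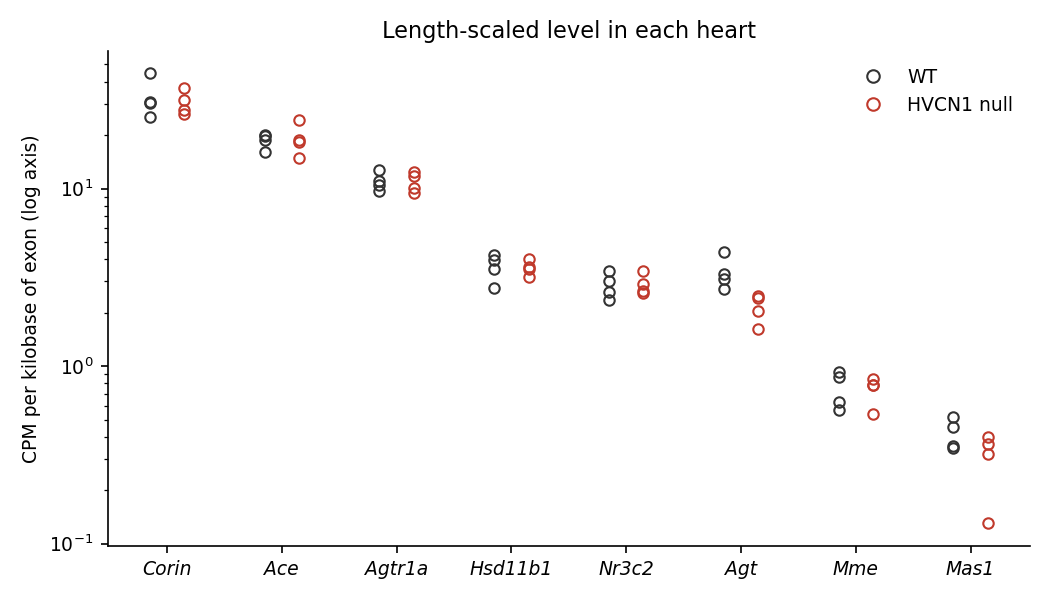
CPM per kilobase of merged exon in each heart (log axis), WT black and HVCN1 null red, for the 8 members with counts in every heart, in order of their mean. Corin is highest (25.3 to 44.6) and Mas1 lowest, and only for Agt are the genotypes apart.

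Of 18 other renin-angiotensin genes counted here, 13 were tested, 4 with a positive and 9 with a negative sign, 0 were DEGs by edgeR's quasi-likelihood test or by its exact test, its likelihood ratio test, DESeq2 or voom, and the median log2 fold change was -0.07 against -0.01 over all tested genes. At an unadjusted p under 0.05 there was 1, Cma1, against 11.0% of all tested genes. The renin gene Ren1 had 4 counts over the null and 2 over the WT hearts, and Agtr1b 0 and 1. The largest log2 differences belonged to the mast cell protease genes Cma1 (1.11, 155 against 74 counts, edgeR adjusted p = 0.282) and Mcpt4 (0.51, edgeR adjusted p = 0.522). The gene of the peptidase neurolysin, Nln, followed (0.22, edgeR adjusted p = 0.641). All 5 mast cell markers, which include Cma1 and Mcpt4, had a positive sign and none was a DEG. Their sum was 9.78 to 12.3 CPM in the null and 7.06 to 8.74 CPM in the WT hearts. Kit was the largest part of the sum in every heart, with 5.76 to 7.87 CPM in the null and 4.63 to 5.54 CPM in the WT hearts. Cpa3, Cma1 and Tpsb2 overlapped between the genotypes, and Kit and Mcpt4 did not. Of all tested genes, 3.60% were higher in null hearts without overlap. The part of mast cells in these values was not tested.
Angiotensin II acts through the AT1 receptor on G proteins, phospholipase C and regulators that end the signal. The 14 genes of this list were all tested, 8 with a positive and 6 with a negative sign, 0 were DEGs by each of those tests, 1 had an unadjusted p under 0.05 against 11.0% of all tested genes, and the median was 0.03. The largest log2 differences were those of Plcb1 (0.27, edgeR adjusted p = 0.423), Rgs4 (0.17) and Plcb3 (-0.16).

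For corticosteroid handling and receptor partners, 10 of 16 genes were tested, 3 with a positive and 7 with a negative sign. There were 0 DEGs by each of those tests and 1 at an unadjusted p under 0.05 against 11.0% of all tested genes, and the median was -0.10. The largest log2 differences were those of Fkbp5, a receptor chaperone induced by corticosteroids (0.53, edgeR adjusted p = 0.362), Star (-0.29) and Hsp90aa1 (0.25). The aldosterone and corticosterone synthases Cyp11b2 and Cyp11b1 had 0 counts in every heart.
Of 14 genes known to respond to mineralocorticoids or glucocorticoids and counted here, 12 were tested, 6 with a positive and 6 with a negative sign and a median of -0.05. Among the hearts low in Myl7 the signs were 8 positive and 4 negative with a median of 0.15, among the high ones 8 and 4 with 0.12, and 9 and 3 with 0.13 once WT heart 7 was left out. Over all hearts 1 rose, against 0.743% of all tested genes, and 0 fell. Per1, a clock gene that aldosterone and corticosterone induce, had 96.9, 103, 96.8 and 65.1 CPM in HVCN1 null and 56.8, 38.9, 42.4 and 37.3 CPM in WT hearts. Every null heart was above every WT heart, and the log2 fold change was 1.04 (standard error 0.17, edgeR adjusted p = 0.0178). It lost the call without null heart 1, null heart 3, WT heart 6 or WT heart 8, with adjusted p up to 0.0776, while the log2 fold change stayed at 0.98 or more. Within the hearts low and the hearts high in Myl7 the log2 fold changes of Per1 were 1.10 and 1.01 (adjusted p = 0.0826 and 0.224), and without the 2 hearts with high Bmp10 it was 0.96 (adjusted p = 0.0817). The next in size were Ccn2, a matrix protein gene induced in fibrosis (0.74, adjusted p = 0.459), Zbtb16 (-0.47) and Tsc22d3 (0.33, edgeR adjusted p = 0.498), and Sgk1, the best known mineralocorticoid target, was at 0.18 (adjusted p = 0.822).

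Natriuretic peptides counter the renin-angiotensin system by vasodilation and salt loss. Of 9 genes for these peptides, their receptors and the enzymes that make or cut them, 8 were tested, 3 with a positive and 5 with a negative sign and a median of -0.36, and 1 fell, against 0.399% of all tested genes. Without WT heart 7 the signs were 5 positive and 3 negative with a median of 0.09, and voom gave 4 and 4 with -0.13. The gene that fell was Ide, the insulin-degrading enzyme, which also cuts natriuretic peptides. Ide had 58.8, 63.8, 60.5 and 70.2 CPM in null hearts 1 to 4 against 122, 134, 134 and 147 CPM in WT hearts 5 to 8. The null hearts lay far under the WT hearts, 52.9% lower (log2 fold change -1.08, standard error 0.09, edgeR adjusted p = 2.57e-04). Among the 4 hearts high in Myl7 alone the log2 fold change was -1.05 with an adjusted p of 0.108, and a pseudogene, Rpl10-ps6, lies within Ide on the same strand. The next in size were Nppb (-0.49, edgeR adjusted p = 0.683), Nppa (-0.42, adjusted p = 0.957) and Pcsk6, the protease that activates corin (-0.41, adjusted p = 0.194). Nppa, the gene of atrial natriuretic peptide, followed Myl7. In the hearts low in Myl7 it had 259 and 224 CPM in the null against 119 and 83.1 CPM in the WT hearts, higher in both null hearts. These null hearts also had more Myl7, 17.0 and 33.6 CPM against 0.618 and 0.169 CPM. Atrial content and genotype cannot be told apart there. In the hearts high in Myl7, Nppa had 2423 and 2073 CPM in the null against 1850 and 4629 CPM in the WT hearts, where the null values lay between those of the WT hearts. Pcsk6 had 71.3, 56.3, 56.5 and 46.0 CPM in the null and 75.7, 77.7, 73.5 and 79.5 CPM in the WT hearts, without overlap. Of the 8 tested genes of this list, 2 were lower in null hearts without overlap, against 3.45% of all tested genes.
Ace and neprilysin also cut kinins, tachykinins, endothelin and apelin. Of 14 genes of these peptides and receptors, 10 were tested, 6 with a positive and 4 with a negative sign, and the median was 0.13. By edgeR's quasi-likelihood test and by voom 0 were DEGs, with 4 at an unadjusted p under 0.05 against 11.0% of all tested genes. The exact and likelihood ratio tests of edgeR called Bdkrb2 and Ednra, where they called 2.48% and 2.54% of all tested genes, and DESeq2 called Ednra and Aplnr, where it called 3.15%. The largest log2 differences were those of the bradykinin receptor Bdkrb2 (2.12, 65 against 15 counts, edgeR adjusted p = 0.162), the apelin receptor Aplnr (-0.67, adjusted p = 0.192) and the substance P precursor Tac1 (0.54). Bdkrb2 had 0.691, 0.562, 0.380 and 0.311 CPM in the null and 0.127, 0.0309, 0.0264 and 0.270 CPM in the WT hearts. With 1 heart left out its log2 fold change lay between 1.78 and 2.88, the highest value coming without WT heart 8. Aplnr had 37.9, 17.3, 31.2 and 28.4 CPM in the null and 47.8, 51.5, 40.6 and 42.3 CPM in the WT hearts. For both genes the groups did not overlap. Of the 10 tested genes of this list, 2 were higher and 1 was lower in null hearts without overlap. The shares over all tested genes were 3.60% and 3.45%. The log2 fold change of Aplnr was -0.49 among the hearts low and -0.88 among those high in Myl7. The apelin gene Apln was called without HVCN1 null heart 2 (log2 fold change 0.65, edgeR adjusted p = 0.0440) and had an adjusted p of 0.246 with all hearts. Apln, the endothelin receptor Ednra and Acta2 are named after their values were seen. Ednra had 38.3 to 47.9 CPM in the null and 28.1 to 35.3 CPM in the WT hearts (log2 fold change 0.46, edgeR adjusted p = 0.0791). Of 8 markers of smooth muscle cells and pericytes, the vascular cells that carry this receptor, 5 had a positive and 3 a negative sign and 1 rose against 0.743% of all tested genes, the smooth muscle actin Acta2 (1.32, edgeR adjusted p = 0.0466). Acta2 lost the call without any 1 heart other than null hearts 2 and 4, with adjusted p up to 0.149, and its log2 fold change then stayed at 1.13 or more. Among the hearts low and high in Myl7 it was 1.60 and 1.05 (adjusted p = 0.0887 and 0.754). The sum of the 8 smooth muscle and pericyte markers was 1253 to 1943 CPM in the null and 1178 to 1456 CPM in the WT hearts. Rgs5 was its largest part in every heart, at 500 to 797 CPM. The part of these cells in the Ednra values was not tested.

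**Figure D4:**
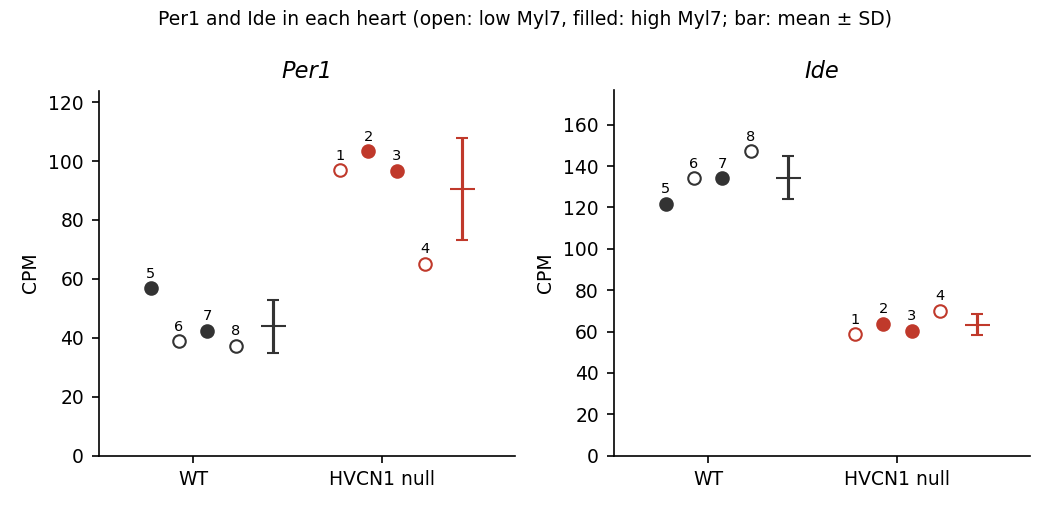
CPM of Per1 and Ide in each heart (axes from 0; WT black, HVCN1 null red, filled where Myl7 was above 500 CPM; bars are mean ± SD, n = 4). Per1 is higher in the null hearts (65.1 to 103 against 37.3 to 56.8 CPM), and Ide is lower (58.8 to 70.2 against 122 to 147 CPM).

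For each tested member, the 2 genes whose log2 CPM followed it most closely over the 8 hearts were found among all tested genes, as a description chosen from a very large number of pairs. For Agt they were Pzp (Pearson's r = 0.974) and Ankrd34a (0.967). Corin was followed by Arl5a (0.967) and Chrm2 (0.961), and Nr3c2 by Tmem263 (0.987) and again Chrm2 (0.967), the muscarinic receptor of heart muscle. For Ace they were B3gnt3 (0.997) and Trim25 (0.958), and for Agtr1a Rxra (0.976) and Amph (0.943). Mas1 was followed by Tmem267 (0.998) and Rcbtb1 (0.973), Mme by Lims1 (0.994) and Ecpas (0.977), and Hsd11b1 by Gm17655 (0.916) and Gm20604 (0.912).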

How the data were processed

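Poly-A RNA of 4 HVCN1 null and 4 WT hearts was sequenced, and the authors aligned the reads with STAR and counted them per Ensembl gene with featureCounts (versions not given in the sources used here). The deposited values are these raw counts, and the submitters' processing notes name mm10 and GRCm38. Of 39056 gene identifiers, 38872 matched the GENCODE annotation of GRCm38, the source of symbols, positions and exon lengths, and Ren2 was not matched. Groups were taken from the labels, in which 4 hearts are separate samples of each genotype, and no batch is given.

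After TMM scaling in edgeR 4.0.16 (R 4.3.3), CPM was taken on the linear and, with a prior count of 2, the log2 scale. The 14796 genes kept by filterByExpr entered edgeR's quasi-likelihood fit of the 2 groups, with Benjamini-Hochberg adjustment over all of them and a threshold of 0.05. Single values and ratios of CPM per kilobase were compared by exact permutation, two-sided, over 70 assignments of 8 hearts. Intervals on counts cover counting error only. The members and gene lists were chosen with earlier results of these data known. The genes named are the 9 members, Hvcn1, the DEGs of each list and the next 3 tested genes by absolute log2 fold change, the genes of the ratios, and the 2 genes most correlated with each tested member. Outside this rule, Sgk1, Ren1, Agtr1b, Hsd11b2, Cyp11b1 and Cyp11b2 are named for their known roles, and Myl7 and Bmp10 as markers. Genes that overlap a named gene are named for that overlap, and Apln, Ednra and Acta2 after their values were seen. Other cell type markers are named where a marker sum is described, also after their values were seen.

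Alternatives were RLE scaling or no scaling, all genes or only those past 1 CPM in 4 or more hearts, the exact test and the likelihood ratio test of edgeR, DESeq2 1.42.0, limma 3.58.1 voom, atrial or adipocyte marker covariates, each heart left out in turn, linear ratios and the longest transcript as length. The fits on hearts low (Myl7 under 50 CPM) or high (above 500) in Myl7 alone, and without the hearts with Bmp10 above 100 CPM, were added after seeing the data. The tests were checked on simulated counts. BLAST 2.17.0 found no other gene that matched a member at 90% identity or more over more than 3.59% of its transcript. Some genes of the lists, and 1 planned ratio, are not reported here and are left out of the list counts. Replicates of a group differed by far more than sampling noise.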

Additional observations from a re-analysis of the deposited data

Results flagged for a closer look

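Of 22 groups of 4 hearts examined for a heart far from its group, with about 1 in 20 expected by chance, 1 held such a heart. It was Agtr2 in WT heart 7, at 0.0264 CPM, where the other 3 WT hearts had 0 counts. The value is a single count and lies under the limit of 3 counts that a heart with 0 counts allows. With the other 3 WT hearts tied at 0 counts, any count would have been flagged. The flag therefore cannot be weighed against the rate expected by chance.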

How the results depend on the processing

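No paired analysis was possible because hearts 1 to 4 and hearts 5 to 8 have no number in common. The 8 tested members kept their side of the threshold under the alternatives other than the atrial covariate, where Agt was called (log2 fold change -0.73) and the number of members called was 1. Mas1 could not be tested with the filter of 1 CPM in 4 hearts. Agt, at -0.66, lay between -0.74 and -0.50 with 1 heart left out, and Mas1 between -0.59 and -0.20. Values near 0 turned sign, and the cause was not tested. For Agtr1a they were 0.00561 with RLE scaling, 0.0376 without scaling, 0.000308 without a filter, 0.00605 with DESeq2, 0.0268 and 0.00879 with the atrial and adipocyte covariates and 0.11 among hearts high in Myl7. For Hsd11b1 they were 0.00576 with RLE, 0.0349 unscaled, 0.00606 with DESeq2, 0.0125 with voom and 0.0440 and 0.0365 with the atrial and adipocyte covariates. For Mme they were 3.94e-06 with RLE, 0.0370 unscaled, 0.0298 with voom, 0.0921 and 0.0369 with the atrial and adipocyte covariates and 0.15 among hearts high in Myl7. Nr3c2 turned to -0.0180 and -0.00978 with the covariates and -0.00645 among hearts low in Myl7, and Ace to -0.0715 among the high ones. With 1 heart left out the ranges were -0.11 to 0.13 for Ace, -0.0700 to 0.0752 for Agtr1a, -0.0791 to 0.12 for Nr3c2, -0.11 to 0.0748 for Hsd11b1, -0.20 to 0.10 for Corin and -0.12 to 0.11 for Mme.

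The number of DEGs, 169, was 367 with edgeR's exact test, 376 with its likelihood ratio test and 466 with DESeq2, 71 and 24 among the hearts low and high in Myl7, where fewer samples were fitted, and 71 to 152 with 1 heart left out. The share of DEGs that were higher was 65.1%, and 95.8% among the high hearts. The corticosteroid-responsive list had 1 DEG, Per1, and 2 with the atrial covariate, where Ccn2 was also called (log2 fold change 0.60). Among the low hearts it had 1, Ccn2 in place of Per1, and it had 0 among the high hearts, 0 without the hearts with high Bmp10 and 0 to 1 with 1 heart left out. The natriuretic list had 0 among the high hearts, and the vasoactive list had 2 with the exact test, the likelihood ratio test and DESeq2 and 0 to 1 with 1 heart left out. Corin to Nppa was -1.35 among the low and 0.31 among the high hearts and -1.39 to 0.36 with 1 heart left out. With the longest transcript the levels of Agtr1a, Hsd11b1 and Mme moved to 13.9, 7.73 and 1.07 CPM per kilobase. The ratio of Agtr1a to Agtr2 was planned and not run, since Agtr2 had 0 counts in 5 of 8 hearts, and Agtr2 could be tested only without the filter (edgeR adjusted p = 0.748). Depth limited Agtr2, Ren1 and Hsd11b2.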

Other observations

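Among the cell type markers read in the same hearts, all 6 macrophage markers had a negative sign (median -0.30, sum 156 to 202 CPM in null and 174 to 251 CPM in WT hearts), as had all 5 erythroid markers (median -0.96), and none was a DEG. The erythroid sums overlapped between genotypes at 1290 to 8379 CPM in null and 3010 to 15207 CPM in WT hearts, with WT heart 5 the highest. The sums of endothelial markers, the main site of Ace in the heart, overlapped between genotypes at 904 to 1070 CPM in null and 956 to 1122 CPM in WT hearts.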
